A study of Mus musculus with 6 samples.

Results

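The claudin family was followed through 9 genes, Cldn1, Cldn3, Cldn4, Cldn5, Cldn7, Cldn8, Cldn9, Cldn10 and Cldn12, on a pair of Affymetrix mouse expression chips. The members were chosen by gene symbol: every probe set whose only annotated symbol was 1 of these 9 was used, which gave 17 of the 35041 probe sets with a single symbol and 9 of 18193 genes. Chip A carried 14 of the 17 and chip B carried 3. The populations were olfactory sensory neurons (OSNs) sorted by FACS as GFP-positive cells, the olfactory epithelium left without those cells (residual epithelium), and brain taken without its olfactory bulb. All came from OMP-GFP mice, in which GFP stands in place of the coding region of Omp, so the brain and the residual epithelium also carry that allele. RNA came from about 500000 sorted OSNs and about 2500000 residual cells. Sex, age, genetic background, number of animals and pooling are not stated in the sources read. Each population was hybridised to 1 array of each chip, so no difference below has a replicate check, no p-value is given, and the list of members was drawn up with results of these arrays known.

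Claudins are membrane proteins of tight junctions, the belts that join epithelial or endothelial cells near their apical side. Their extracellular loops meet those of the neighbouring cell and either seal the gap between cells or form pores selective for small ions, and most bind scaffold proteins such as ZO-1 through their C-terminal end. In the olfactory epithelium such junctions join the dendrites of the sensory neurons to the surrounding sustentacular cells, which are supporting cells, and part the mucus from the tissue fluid. In brain the endothelium of the blood-brain barrier and the choroid plexus epithelium have claudin-based junctions.

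Promoters of some of the claudins that differed between epithelium and brain are printed to show what sequence lies at their starts. Of the 9 members, 7 had 11 entries among the RefSeq promoters of build GRCm38.p6, each running from 250 bases before a start to 50 after it. Shown here are those of Cldn3, Cldn4 and Cldn7, which all had at least 2-fold more signal in residual epithelium than in brain, and that of Cldn5, which had less. Cldn10, also lower in residual epithelium, was searched and is not printed, and the members without an entry were Cldn8 and Cldn9. Cldn3 lies at chr5:134985964-134986263 (plus strand), Cldn4 at chr5:134946885-134947184 (minus strand), the Cldn7 starts at chr11:69964529-69964828 and chr11:69965171-69965470 (plus strand) and Cldn5 at chr16:18776597-18776896 (plus strand). Capitals mark CACCTG or its reverse complement, the E-box read by Snail and Zeb repressors, in the first 4 sequences, and AACNNGTT, a core read by grainyhead-like factors, in the Cldn5 sequence.
Cldn3: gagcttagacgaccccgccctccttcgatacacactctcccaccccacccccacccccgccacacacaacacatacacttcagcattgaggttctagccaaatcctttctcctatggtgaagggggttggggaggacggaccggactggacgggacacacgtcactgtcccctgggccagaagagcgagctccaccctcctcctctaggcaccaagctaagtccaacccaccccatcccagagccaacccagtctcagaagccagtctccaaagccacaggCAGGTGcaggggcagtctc
Cldn4: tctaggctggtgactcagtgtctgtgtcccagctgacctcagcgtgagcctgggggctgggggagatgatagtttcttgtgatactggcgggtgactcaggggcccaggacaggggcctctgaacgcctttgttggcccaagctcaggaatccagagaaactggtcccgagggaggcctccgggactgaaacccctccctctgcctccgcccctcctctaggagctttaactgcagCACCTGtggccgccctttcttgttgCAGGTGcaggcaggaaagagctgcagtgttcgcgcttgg
Cldn7, first start: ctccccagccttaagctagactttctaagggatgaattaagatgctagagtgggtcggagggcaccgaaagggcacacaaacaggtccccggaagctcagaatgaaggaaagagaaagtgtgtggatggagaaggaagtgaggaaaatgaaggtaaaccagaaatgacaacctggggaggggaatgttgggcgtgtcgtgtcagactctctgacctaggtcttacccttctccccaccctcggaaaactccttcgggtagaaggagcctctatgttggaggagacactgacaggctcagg
Cldn7, second start: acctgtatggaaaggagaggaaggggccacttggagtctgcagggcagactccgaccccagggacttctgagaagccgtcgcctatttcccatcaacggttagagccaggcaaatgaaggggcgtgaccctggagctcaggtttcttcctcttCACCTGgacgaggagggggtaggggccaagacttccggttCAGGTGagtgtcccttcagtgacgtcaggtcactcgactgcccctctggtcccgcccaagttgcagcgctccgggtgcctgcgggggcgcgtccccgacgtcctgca
Cldn5: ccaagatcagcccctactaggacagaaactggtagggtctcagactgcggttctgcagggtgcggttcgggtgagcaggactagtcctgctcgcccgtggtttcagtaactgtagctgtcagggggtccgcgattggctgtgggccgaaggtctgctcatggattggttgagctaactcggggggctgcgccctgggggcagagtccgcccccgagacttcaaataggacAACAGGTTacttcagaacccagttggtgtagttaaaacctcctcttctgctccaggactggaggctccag

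CACCTG was present on either strand in 20.2% of all 32851 promoter entries, and among the members in Cldn3 (1 match), Cldn4 (2 matches) and the second start of Cldn7 (2 matches). Cldn1, Cldn5, Cldn10 and Cldn12 had none in these windows. AACNNGTT was present in 4.20% of all entries and in Cldn5 only among the 7 members. GGGCGG, the Sp1 box, was found at 1 or more starts of all 7 members, against 35.7% of all entries. CCCNNGGG, the core bound by early B-cell factors, was found in 6 of the 7, against 13.7% of entries, and TATAAA in none, against 13.6%. Each motif was searched on both strands and counted on its own, whether or not matches of different motifs overlapped. A member with several starts had more windows that could hold a match than a single entry has.

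Signals are intensities on a linear scale, with array medians between 194.65 and 257.7. Values under a chip's lower quartile, the floor (70.3 for A, 79.7 for B), were raised to it before log2 ratios were taken, and a ratio with its lower signal at the floor is a bound, written as at least so many fold. A gene was counted in a comparison if at least 1 of the signals compared reached the chip's median (222 or 243.7), and called if the signals differed at least 2-fold. Over all counted genes, 12.8% were called higher and 18.7% lower in OSNs than in residual epithelium. For OSNs over brain these shares were 18.5% and 21.1%, beside which the list counts below are to be read. A gene that reached the median in only 1 of the populations compared could only be higher there. The sign of its ratio thus follows from the filter, which holds for many genes in the marker lists below. Where a gene had several probe sets, the one with the highest rank of mean log2 signal stood for it. The others are given for every member and for some of the other genes only. Signals of different probe sets depend on their sequences, so levels are compared between populations and never between genes. On 100 probe sets present on both chips, the log2 ratio of OSNs over residual epithelium differed between chips (B minus A) by -0.23 on average with an SD of 0.25. Between probe sets of the same gene the SD was 0.62 for that ratio and 0.79 for OSNs over brain. Omp, whose locus carries the GFP used for the sort, read 11057 in OSNs, against 248.8 in residual epithelium and 201.4 in brain. That was probe set 1422200_at, and its other one was under the floor throughout. In these bulk samples fewer cells of a type and less RNA per cell cannot be told apart.

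**Figure D1:**
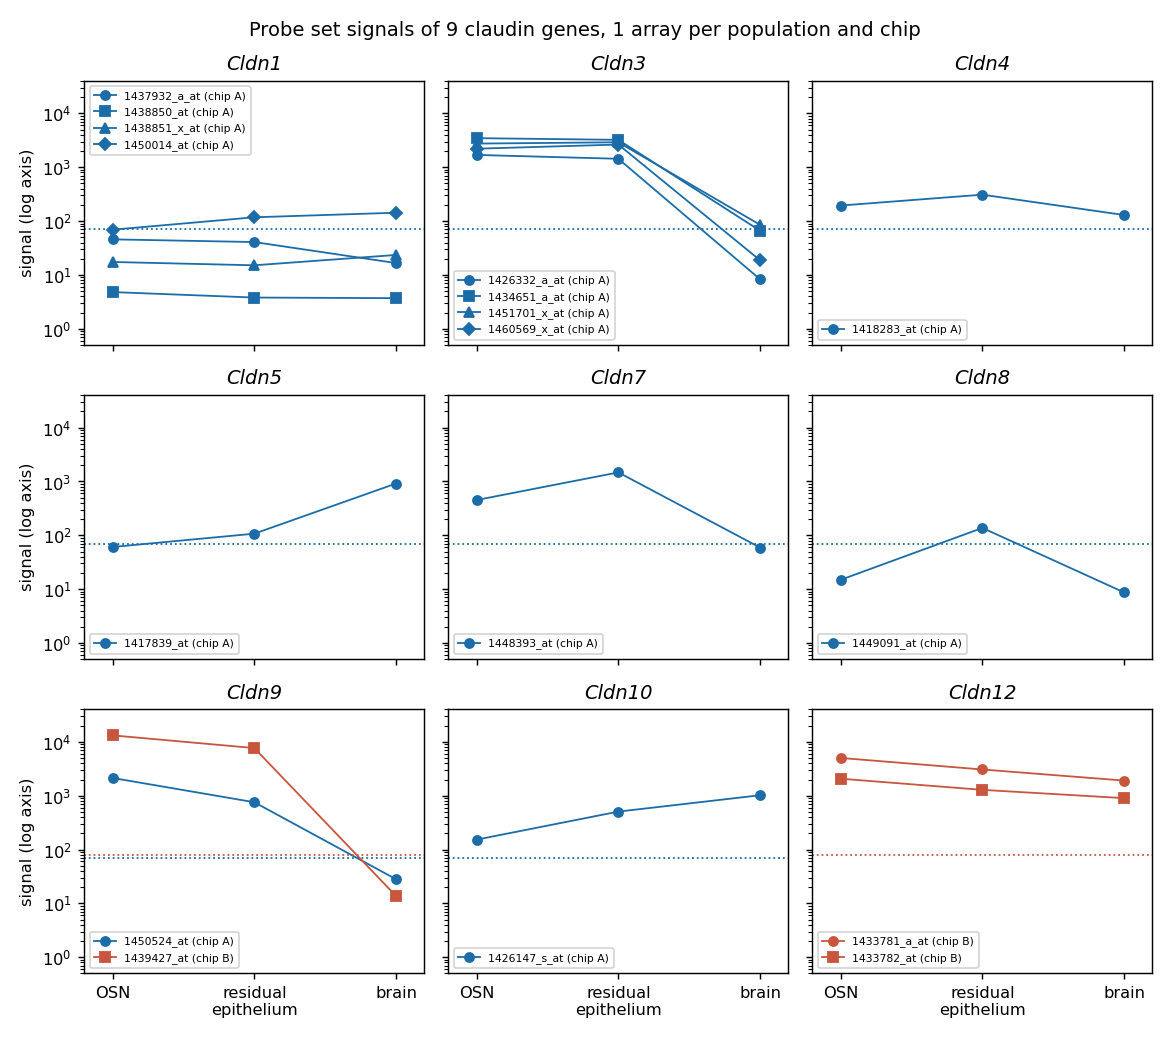
Signal (log axis) of the 17 claudin probe sets in OSNs, residual epithelium and brain, with 1 panel per gene, 1 line per probe set and 1 array per point; blue marks chip A, red marks chip B and the dotted lines mark the floor of each chip. Cldn9 and Cldn3 were high in OSNs and residual epithelium and near or under the floor in brain, Cldn5 and Cldn10 ran the other way, and 3 of 4 Cldn1 probe sets were under the floor throughout.

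Cldn9, a claudin needed for hearing in mice, had more signal in OSNs than in residual epithelium on both chips and was under the floor in brain. On chip B (probe set 1439427_at) its signal was 13217 in OSNs, against 7677 in residual epithelium and 13.7 in brain. The chip A probe set, 1450524_at, read 2138 in OSNs, against 756.7 in residual epithelium and 28.1 in brain. Both probe sets were therefore under the floor in brain only and ranked the populations alike. The chip B signal was 1.72-fold above residual epithelium in OSNs and the chip A signal 2.83-fold, so the probe sets fell on different sides of 2-fold. Their log2 ratios, 0.78 and 1.50, differed by 0.71, with chip B the lower, as in the mean chip difference of -0.23. That gap is above the SD of 0.25 of differences between chips on shared probe sets. The SD of 0.62 describes single probe sets around the mean of their gene, not a difference between 2 of them, so it is not a direct measure for this gap. Cldn9 was at least 165.8-fold above brain in OSNs on chip B and at least 30.4-fold on chip A. In residual epithelium it was at least 96.3-fold and at least 10.8-fold higher than in brain.

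The Cldn9 signal of residual epithelium, as a percent of that of the OSN array, was 58.1% on chip B and 35.4% on chip A, and for Omp it was 2.25%. Of the mature OSN markers 8 of 10 were measured and all 8 were called higher in OSNs than in residual epithelium, with a median log2 ratio of 4.78. The summed signal of these 8 was 223309 in OSNs, against 9523 in residual epithelium and 7426 in brain, and Cnga2, a subunit of the olfactory transduction channel, had 10560 in OSNs, against 588 in residual epithelium and 64.0 in brain. Markers of ciliated respiratory cells also had more signal in the sorted cells, with 12 of 13 counted genes called higher and none lower. Their summed signal over 15 measured genes was 27708 in OSNs, against 4045 in residual epithelium and 3225 in brain, and Foxj1, a regulator of motile cilia, read 987.7 in OSNs, against 187.4 in residual epithelium and 115.1 in brain. Tekt1 read 562 in OSNs, against 143.6 in residual epithelium and 64.9 in brain. OSNs use some of these genes themselves, and the part of either cell type in the Cldn9 signal was not tested.

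Cldn12, which lacks the C-terminal scaffold-binding motif of most claudins, had signal well over the floor everywhere and most in OSNs. Probe set 1433781_a_at gave 5034 in OSNs, against 3073 in residual epithelium and 1911 in brain. The other, 1433782_at, gave 2071 in OSNs, against 1285 in residual epithelium and 901.4 in brain. Both are on chip B and ordered the populations the same way. Over residual epithelium the OSN signal was 1.64-fold and 1.61-fold higher, short of 2-fold. Over brain it was 2.63-fold and 2.30-fold higher, log2 ratios of 1.40 and 1.20. With arrays scaled instead on the 100 shared probe sets, the larger of these became 1.05, and the median over all counted genes moved to -0.23, against 0.05 as deposited.

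Cldn3, a sealing claudin of many epithelia and a receptor for a bacterial enterotoxin, had nearly the same signal in the sorted neurons and in the cells left behind. Probe set 1434651_a_at gave 3474 in OSNs, against 3232 in residual epithelium and 66.3 in brain. The other 3 probe sets, all on chip A, gave 1695 to 2754 in OSNs, 1437 to 2912 in residual epithelium and 8.3 to 85.3 in brain. The log2 ratio of OSNs over residual epithelium lay between -0.26 and 0.24 over the 4 probe sets, with 2 above 0 and 2 below, and so gave no direction. Over brain the OSN signal was higher by at least 24.1-fold on 1 probe set, by 32.3-fold on the only probe set above the floor in brain (1451701_x_at), and by at least 49.4-fold on 1434651_a_at. All 4 carry an _a_ or _x_ suffix, which marks probes shared by transcripts or found in other sequences.

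Cldn4, which lies next to Cldn3 in the mouse gene order and binds the same enterotoxin, had low signal with a peak in residual epithelium. Its only probe set gave 194.6 in OSNs, against 309.6 in residual epithelium and 129.6 in brain, and only that of residual epithelium reached the chip median. OSNs had 1.59-fold less than residual epithelium, and residual epithelium had 2.39-fold more than brain. Cldn7, a claudin that binds the adhesion protein Epcam, gave 452.6 in OSNs, against 1476 in residual epithelium and 59.2 in brain. It was 3.26-fold lower in OSNs than in residual epithelium, and at least 6.44-fold above brain in OSNs. In residual epithelium it was at least 21.0-fold higher than in brain. Cldn3 and Cldn7 thus shared the low brain signal and not the ratio of OSNs to residual epithelium, log2 0.10 for Cldn3 and -1.71 for Cldn7.

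Cldn8, known from the distal kidney tubule as a barrier to cations, was above the floor in residual epithelium only. Its signals were 14.9 in OSNs, against 137.2 in residual epithelium and 8.7 in brain, none of which reached the chip median, so it was not counted in any comparison. Residual epithelium was at least 1.95-fold above each of the others. Cldn1, the claudin without which mouse epidermis loses water, was near the floor in all populations. Probe set 1450014_at gave 69.2 in OSNs, against 117.7 in residual epithelium and 143.1 in brain, and the other 3 gave 3.7 to 45.8. None of the 4 probe sets was counted, so no direction is given for Cldn1.

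Markers of the other cells of the mucosa stood beside these epithelial claudins as follows. Of the sustentacular markers 11 of 12 were measured, 6 of 11 were called lower in OSNs than in residual epithelium and none higher, and their summed signal was 11218 in OSNs, against 20477 in residual epithelium and 5264 in brain. None of the 11 was at or under the floor in OSNs, and 1 gene of the list, Ermn, also stands among the oligodendrocyte markers. Cyp2g1, a nasal cytochrome of these cells, had 3822 in OSNs, against 2657 in residual epithelium and 102.7 in brain, and Cyp1a2 had 424.4 in OSNs, against 334.7 in residual epithelium and 16.4 in brain. These markers were within 2-fold between the nasal populations, while the median log2 ratio over the list was -1.20. The part of sustentacular cells among the sorted cells in the Cldn3 and Cldn7 signals was not tested.

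Other lists differed more between the nasal populations. Horizontal basal cell markers, all 9 measured, were called lower in OSNs than in residual epithelium for 6 of 7 counted, and 7 of the 9 were at or under the floor in OSNs. The 6 reached the chip median in residual epithelium and not in OSNs, so the sign of their ratios follows from the filter. Their summed signal was 1437 in OSNs, against 3429 in residual epithelium and 1679 in brain. The keratin gene Krt5 read 168.8 in OSNs, against 563 in residual epithelium and 26.5 in brain, and Krt14 read 18.5 in OSNs, against 391.7 in residual epithelium and 6.7 in brain. On the 3 Krt14 probe sets the log2 ratio of OSNs over residual epithelium ran from -2.48 to 0.67. Bowman gland markers were called lower for 6 of 7 counted, with 2 of 9 measured at or under the floor in OSNs. Their summed signal was 6252 in OSNs, against 76323 in residual epithelium and 1043 in brain. The gene Bpifb9b alone gave 39507.5 of the sum in residual epithelium. Sox9 and Aqp5 were the genes under the floor in OSNs. Sox9 read 38.9 in OSNs, against 146.7 in residual epithelium and 219.2 in brain, and the water channel gene Aqp5 41.9 in OSNs, against 220.2 in residual epithelium and 14.0 in brain. Microvillar cell markers were called lower for 5 of 8 counted, with a sum over 9 genes of 3870 in OSNs, against 8144 in residual epithelium and 1638 in brain. Ascl3 read 613 in OSNs, against 1820 in residual epithelium and 351.9 in brain, and Foxi1 135.5 in OSNs, against 636.1 in residual epithelium and 116.4 in brain. All but 2 of the 9 microvillar markers were above the floor in OSNs.

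Every counted stromal and leukocyte marker was called lower in OSNs than in residual epithelium. Stromal markers were called lower for 5 of 5 counted, with a sum over 6 genes of 1122 in OSNs, against 3960 in residual epithelium and 1737 in brain. The collagen gene Col1a1 read 123.7 in OSNs, against 746.4 in residual epithelium and 33.2 in brain, and Col1a2 421.2 in OSNs, against 1678 in residual epithelium and 574 in brain. Leukocyte and marrow markers were called lower for 13 of 13 counted, with a sum over 14 genes of 2177 in OSNs, against 89217 in residual epithelium and 4181 in brain. The leukocyte gene Ptprc read 33.8 in OSNs, against 3930 in residual epithelium and 128.8 in brain, and Cd52 40.4 in OSNs, against 3169 in residual epithelium and 92.1 in brain. Ptprc, Cd52, Col1a1 and most other called genes of these lists reached the chip median in residual epithelium and not in OSNs. The sign of their ratios follows from the filter. Ptprc and Col1a2 each also had a probe set with a log2 ratio of 0. Of the members, Cldn7 and Cldn10 were called lower in the same comparison, and which cells gave their signals was not tested.

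Cldn5 and Cldn10 each had more signal in brain than in OSNs or residual epithelium. Cldn5, the main claudin of brain endothelium, gave 60.7 in OSNs, against 107.3 in residual epithelium and 917.1 in brain. It was under the floor in OSNs, at least 13.0-fold lower in OSNs than in brain, and 8.55-fold lower in residual epithelium than in brain. The 13 measured endothelial markers of 14 had summed signals of 2082 in OSNs, against 1813 in residual epithelium and 4781 in brain, and 6 of 8 counted were called lower in OSNs than in brain and none higher. Pecam1 had 148.8 in OSNs, against 173.5 in residual epithelium and 211.6 in brain, and Cdh5 read 96.8 in OSNs, against 135.5 in residual epithelium and 200.9 in brain. The 2 Cdh5 probe sets lay at -0.49 and 0.42 for OSNs over residual epithelium. Only 4 of the endothelial markers were counted between OSNs and residual epithelium, with none called either way, and the share of endothelium in the Cldn5 signal was not tested.

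Cldn10, whose isoforms form paracellular pores for cations or anions in the kidney, gave 152.8 in OSNs, against 507 in residual epithelium and 1021 in brain on its only probe set, 1426147_s_at, whose suffix marks probes shared with other transcripts. It was 3.32-fold lower in OSNs than in residual epithelium and 6.68-fold lower in OSNs than in brain. Residual epithelium was 2.01-fold lower than brain, just past the limit, and log2(signal + floor) in place of raised values put that difference at -0.92, inside it. Among brain cell lists, choroid plexus markers had summed signals of 2857 in OSNs, against 6697 in residual epithelium and 37870 in brain, mostly from the thyroxine carrier Ttr (149.3 in OSNs, against 481.8 in residual epithelium and 34517 in brain), while Folr1 read 194.9 in OSNs, against 230.1 in residual epithelium and 309.1 in brain. Of 9 measured choroid plexus markers 3 of 5 counted were lower in OSNs than in brain and none higher. For residual epithelium over brain 7 were counted. Otx2, Clic6 and Aqp1 were called higher and Ttr and Kl lower, where 22.5% and 18.9% of all counted genes were. Aqp1 read 2053.5 in residual epithelium and 151.1 in brain, so the list was not high in brain throughout. Oligodendrocyte markers, 8 of 9 measured, were all 8 lower in OSNs than in brain, with a summed signal of 1742 in OSNs, against 5461 in residual epithelium and 33132 in brain. The myelin gene Mbp read 168.3 in OSNs, against 198.2 in residual epithelium and 11202 in brain, and Mog 4.0 in OSNs, against 25.6 in residual epithelium and 678 in brain. On the 8 Mbp probe sets the log2 ratio of OSNs over brain ran from -7.61 to -0.42, and that of residual epithelium over brain from -7.61 to 0.90. The part of either cell type in the Cldn10 signal of brain was not tested, and no list was made for astrocytes or neurons of the brain.

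**Figure D2:**
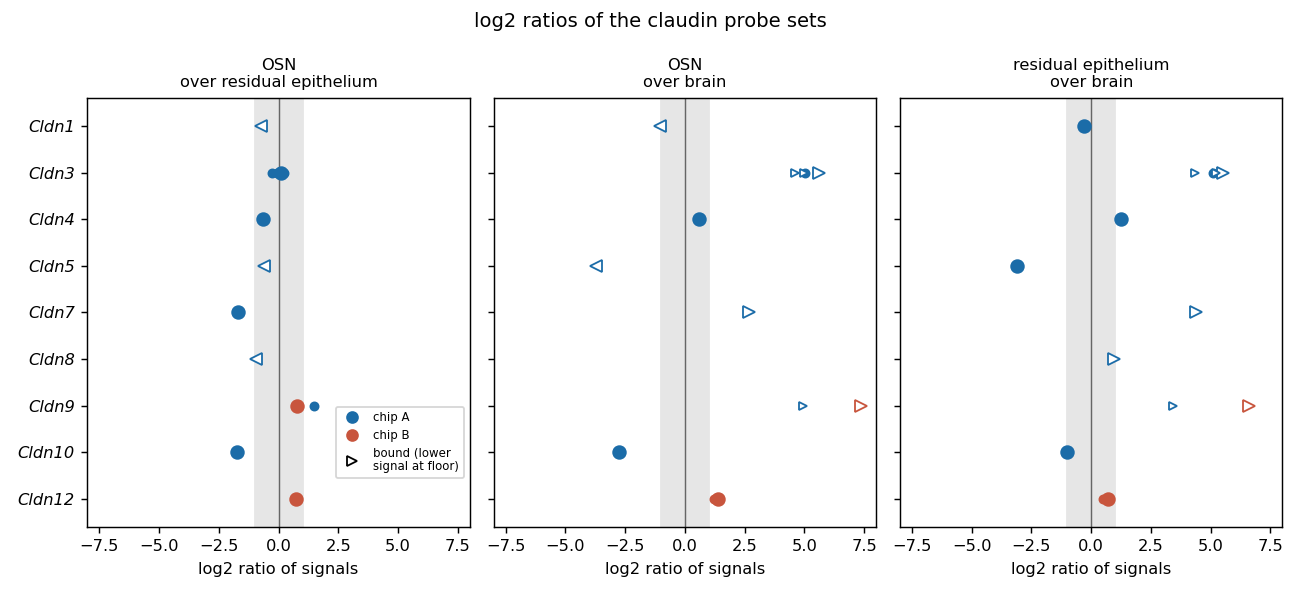
log2 ratios of signals for every claudin probe set above the floor in at least 1 of the populations compared, with OSNs over residual epithelium left, OSNs over brain in the middle and residual epithelium over brain right. Large symbols stand for the gene, small ones are its other probe sets, open triangles are bounds whose lower signal was at the floor, and grey marks differences within 2-fold; in the left panel no large symbol lies beyond 2-fold on the positive side.

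Counted over genes, the comparison of OSNs with residual epithelium had 6 of the 9 members, with none called higher and 2 called lower, Cldn7 and Cldn10. Over all 12254 counted genes 12.8% were called higher and 18.7% lower. Cldn1, Cldn5 and Cldn8 did not reach the chip median in either population and were not counted. The median log2 ratio of the 6 was -0.28, against -0.05 over all counted genes. Cldn4 and Cldn10 reached the chip median in residual epithelium only, so the sign of their ratios follows from the filter. Cldn9 would be called higher with its chip A probe set or with the median of both (log2 1.14).

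Against brain, 6 members were counted in OSNs, of which Cldn3, Cldn7, Cldn9 and Cldn12 were called higher and Cldn5 and Cldn10 lower. Over all 12380 counted genes 18.5% were called higher and 21.1% lower. Each of the 6 was thus called, with a median log2 ratio of 2.04, against 0.05 over all genes. Cldn3, Cldn7 and Cldn9 reached the chip median in OSNs while at or under the floor in brain, so the sign of their ratios follows from the filter, as it does for Cldn5 and Cldn10 the other way. Cldn1, Cldn4 and Cldn8 were not counted. Of all calls in this comparison 46.7% were higher, and 35.3% after scaling to the 100 shared probe sets.

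For residual epithelium over brain 7 members were counted. Cldn3, Cldn4, Cldn7 and Cldn9 were called higher, where 22.5% of all 12916 counted genes were, and Cldn5 and Cldn10 were called lower, where 18.9% were. Cldn12 was 1.61-fold higher and not called. The median log2 ratio of the 7 was 1.26, against 0.12 over all counted genes. Cldn3, Cldn4, Cldn7 and Cldn9 reached the chip median in residual epithelium only, and Cldn5 in brain only, so their signs follow from the filter. Of all calls 54.3% were higher, and 42.7% under the scaling on shared probe sets. These comparisons share arrays in pairs, so a gene's ratios in them are not independent of each other.

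**Figure D3:**
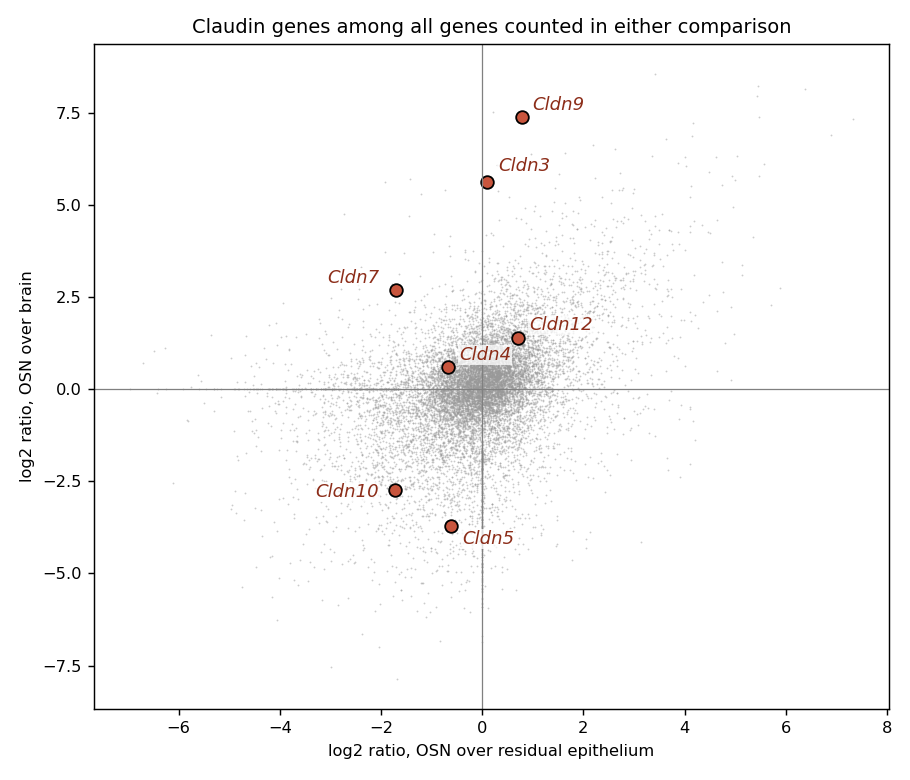
log2 ratio of OSNs over residual epithelium (horizontal) against that of OSNs over brain (vertical) for genes counted in either comparison (grey points), with the 7 claudins among them in red; the axes share the OSN arrays. Cldn9 and Cldn3 lie far up the vertical axis with horizontal values of 0.78 and 0.10, Cldn7 lies up and to the left, and Cldn5 and Cldn10 lie below 0 on both axes. Cldn5 was not counted for OSNs over residual epithelium, so its horizontal value gives no direction.

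Beyond the members, 15 of 21 other claudin and claudin-domain genes were measured, and 7 were counted between OSNs and residual epithelium. None was called higher and Cldn6, Cldn13, Cldn23 and Cldn34c1 were called lower, where 12.8% and 18.7% of all counted genes were. The call of Cldn34c1 rested on 1 of its 2 probe sets, as the other was at 0. Cldn6, which lies next to Cldn9 in the gene order and is known as a claudin of embryonic epithelia, was singled out after its values were seen and had 141.7 in OSNs, against 404.4 in residual epithelium and 73.0 in brain. It was 2.85-fold lower in OSNs than in residual epithelium, where Cldn9 was 1.72-fold and 2.83-fold higher. The claudin-domain gene Cldnd1 had the highest ratio, 994.6 in OSNs, against 552.7 in residual epithelium and 972.8 in brain, a log2 ratio of 0.85. Its 3 probe sets lay between 0.00 and 0.88. Of 6 counted against brain, Cldn23 was called higher in OSNs (222.4 in OSNs and 35.8 in brain) and Cldn11, the claudin of myelin, lower. The shares over all counted genes were 18.5% higher and 21.1% lower. Cldn11 had 25.4 in OSNs, against 96.7 in residual epithelium and 817.5 in brain, the same order as Cldn5.

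Of the membrane proteins that share tight junctions with claudins, 16 were measured and 10 counted for OSNs over residual epithelium. Of these 10, 1 was called higher and 1 lower, where 12.8% and 18.7% of all counted genes were, and the median log2 ratio was 0.10. Jam3, an immunoglobulin-type junction protein, was 4.96-fold higher in OSNs (700 in OSNs and 141.2 in residual epithelium). Marveld3, a relative of occludin, was 2.49-fold lower, but its 3 probe sets ran from -1.31 to 0.49. Ocln, which encodes occludin, had 648.9 in OSNs, against 993.8 in residual epithelium and 554.5 in brain. Its 2 probe sets lay at -0.61 and 0.17 for OSNs over residual epithelium. Against brain 5 of 14 were called higher in OSNs (Marveld2, Marveld3, F11r, Cxadr and Lsr) and 5 lower (Jam2, Esam, Ildr2, Clmp and Tmem47). Of all counted genes 18.5% were called higher and 21.1% lower. F11r, Cxadr and Jam2 each also had a probe set at 0, and the lowest of Marveld3 was at -0.08. Lsr, the receptor that organises junctions where 3 cells meet, was at least 8.14-fold higher (572.5 in OSNs and 23.5 in brain), though its other probe set was at -0.02, and Tmem47 12.3-fold lower.

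Of the 26 scaffold genes measured, 24 were counted for OSNs over residual epithelium, with 4 called higher, 6 lower and a median of -0.15. These counts are near the 12.8% and 18.7% over all counted genes. Magi1 was 3.26-fold higher, with its 5 probe sets between 0.18 and 1.70, and Amotl1, an angiomotin-like protein, 4.29-fold lower, with its 3 probe sets between -2.57 and -0.97. Tjp1, which encodes ZO-1, had 1099 in OSNs, against 834.6 in residual epithelium and 1084 in brain and was within 2-fold in all comparisons. Cgn, which encodes cingulin, had 1140 in OSNs, against 715.1 in residual epithelium and 357.7 in brain. Its 2 probe sets lay at -0.07 and 0.67 for OSNs over residual epithelium. Against brain 7 of 24 were called higher in OSNs and 6 lower, from Pard6b, a polarity protein (7.38-fold higher), to Mpdz (at least 8.06-fold lower, with its 4 probe sets between -3.01 and 0.00). All counted genes had 18.5% called higher and 21.1% lower.

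Among claudin partners and regulators, 14 of 17 measured genes were counted for OSNs over residual epithelium, with none called higher, 5 called lower and a median of -0.50. The shares over all counted genes were 12.8% higher and 18.7% lower. Epcam had 3460 in OSNs, against 2960 in residual epithelium and 435.7 in brain, and so differed from its partner Cldn7 in the ratio between the nasal populations. Spint2, an inhibitor of membrane proteases, had the highest ratio, 0.64. Cdh1, the epithelial cadherin, was 4.02-fold lower in OSNs (236.9 in OSNs, against 952.6 in residual epithelium and 64.7 in brain), log2 -2.01, near the -1.71 of Cldn7. Snai2, a repressor that reads the E-box shown above, was at least 15.4-fold lower (44.1 in OSNs and 1225 in residual epithelium). That was on a probe set with an _x_ suffix, and its other probe set was under the floor. Against brain 5 of 11 were called higher in OSNs, led by Epcam (7.94-fold), and 3 lower, with Ephb1 4.36-fold lower. The Epcam value, log2 2.99, came from a probe set with an _x_ suffix, and its other probe set was at 6.09. Among all counted genes 18.5% were called higher and 21.1% lower.

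**Figure D4:**
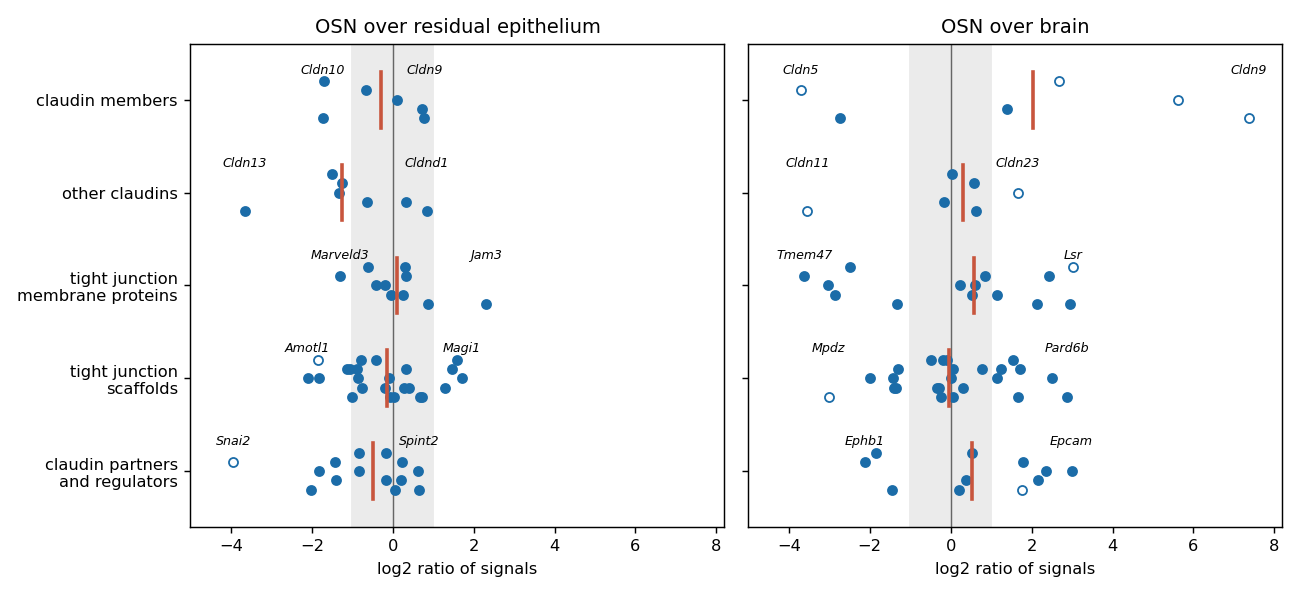
log2 ratios of the counted genes in the claudin list and 4 lists of junction genes, for OSNs over residual epithelium (left) and OSNs over brain (right). Points are genes, open points are bounds, red lines are list medians (-0.28 left and 2.04 right for the claudins, over the 6 members counted in each, which are not the same 6), grey marks differences within 2-fold, and the gene with the highest and the lowest ratio of each list is named.

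The genes nearest to Cldn9 in pattern were sought on chip B by the Euclidean distance between floored log2 signals, each centred on its mean over the 3 populations. They were Gm13648 (0.53), 5730403I07Rik (0.60), H2bc21 (0.89), Gk5 (1.28) and Mbnl3 (1.37). Gm13648 had 24893 in OSNs, against 21337 in residual epithelium and 134.8 in brain. The genes nearest to Cldn10 on chip A were Gstp1 (0.026), Cxcl12 (0.051), Cbx5 (0.079), Epas1 (0.081) and Tm4sf1 (0.093), and Gstp1 had 525.2 in OSNs, against 1778 in residual epithelium and 3591 in brain. These distances rest on 3 points each and say nothing of a shared role.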

How the data were processed

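RNA of 3 populations was measured on 6 single-colour arrays, 1 per population and chip. The deposited values are probe set intensities on a linear scale. Per the submitters' processing notes the authors used MAS5; the notes of 5 of 6 arrays name it, those of chip A brain do not, and no version is stated. The mean between percentile 2 and percentile 98 was 499.6 to 499.9 on every array, so arrays had been scaled to 1 level, which makes signals relative to the rest of each array. Background correction is not described in the sources read. For arrays, their number limits the precision.

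From these values a floor (percentile 25), a filter (percentile 50), log2 ratios within a chip and calls at 2-fold were computed, leaving out 64 control probe sets per chip. Symbols came from the platform annotation, updated through Entrez identifiers to the RefSeq table of GRCm38.p6; 936 probe sets had several symbols and 9160 none, and these were not used. Named genes were all members and, per junction list, the highest and lowest counted ratios plus Tjp1, Ocln, Cgn, Epcam, Cdh1 and Cldn11, the first 2 measured markers of each cell type list, and the 5 genes nearest to Cldn9 and Cldn10. Members and lists were chosen with earlier results of these data known. The computation was tested on simulated data. Tables were computed with pandas 2.3.3 and numpy 2.4.6 under Python 3.11.15, and figures drawn by matplotlib 3.10.9. Alternatives were other floors and filters, a pseudocount, 3 rescalings and other choices among probe sets.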

Additional observations from a re-analysis of the deposited data

How the results depend on the processing

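With 1 array per population and chip, no result has a spread between animals. No paired analysis was possible because each population had 1 array per chip. Under 10 alternatives the 19 member ratios gave 180 values, of which 95 were identical to those reported. Changing the filter cannot alter a ratio and the centring subtracted nothing. The rest of the 95 came from alternatives that left a member's floored signals or its probe set as they were. Of the 85 that differed, 57 moved by less than the SD between chips of their comparison and 28 by more. The sign turned for Cldn3 in OSNs over residual epithelium, whose value ran from -0.01 to 0.10, and for no other member. Of the counts of called members, taking the median of each gene's probe sets gave 1 higher in OSNs than in residual epithelium (Cldn9). Without suffixed probe sets, which drops Cldn3 and Cldn10, 1 member was lower in each of the 3 comparisons. A filter at percentile 75 left 1 lower in OSNs than in residual epithelium, and a pseudocount left 1 lower in residual epithelium than in brain. The other counts stayed within 1.5 times. Among them, Cldn4 was no longer called higher in residual epithelium than in brain with the pseudocount (log2 0.93) or with the filter at percentile 75. Over all genes, 2292 were lower in OSNs than in residual epithelium, and 1385 with the filter at percentile 75, which tests fewer genes. Quantile normalization put Cldn9 in OSNs over residual epithelium at 0.36, against 0.78. For Cldn9 in OSNs over brain the bound was 9.08 with the floor at percentile 10, 6.30 with it at percentile 40 and 6.15 with the median of its probe sets, against 7.37. Signals near the floor limit Cldn1, Cldn4 and Cldn8.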

Other observations

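Cldn13, a claudin known from mouse blood-forming tissue, read 92.5 in OSNs, against 1164 in residual epithelium and 72.2 in brain. It was 12.6-fold lower in OSNs than in residual epithelium and 16.1-fold higher in residual epithelium than in brain, the largest such difference among the counted claudins outside the 9 described above. Erythroid markers, 5 of 7 measured, were lower in OSNs for 5 of 5 counted, and 4 of the 5 were at or under the floor in OSNs and in brain. Cldn13 and all 5 erythroid genes reached the chip median in residual epithelium only, so the sign of their ratios follows from the filter. Their summed signal was 277 in OSNs, against 10431 in residual epithelium and 307 in brain. Alas2, the first enzyme of haem synthesis in red cells, had 16.3 in OSNs, against 3393 in residual epithelium and 31.1 in brain, and Slc4a1 had 52.8 in OSNs, against 4264 in residual epithelium and 43.8 in brain. The part of these cells in the Cldn13 signal was not tested.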
